A study of Homo sapiens with 24 samples.

Results

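CTGF, CYR61, ANKRD1, AMOTL2, AJUBA, LATS2, YAP1, WWTR1, TEAD1 and TEAD4 were followed across 24 two-colour arrays of human cancer cell lines. These 10 genes of the YAP-TEAD axis were found by the gene name printed beside each spot, CTGF and CYR61 under their older symbols and AJUBA as JUB on the larger of 2 array designs. They made up 10 of 33407 target names on the larger design and 10 of 36337 on the smaller, with 11 probes on each, since WWTR1 had a pair. Each array held control RNA in Cy3 and treated RNA of the same cell line in Cy5, and each treatment of a line had 1 array.

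The prostate cancer lines were PC3, DU145 and LNCap, the renal cell carcinoma lines A498 and 786O, and the head and neck squamous lines FaDu and SAS. All are long-established lines. The 16 arrays of the larger design held genistein (a soy isoflavone) in PC3 and DU145, wogonin (a plant flavone) in SAS and FaDu, si-CAV2 in A498 and 786O, si-LAMB3 in FaDu and SAS, miR-145 in PC3, DU145 and LNCap, miR-375 in FaDu, miR-23b, miR-24 and miR-27b in PC3 and miR-29a in SAS. The 8 arrays of the smaller design held miR-143 and si-GOLM1 in DU145 and PC3, miR-27b in 786O and A498, and CXCL10 (a chemokine) for 12 or 24 h in 786O. CXCL10 was set against untreated cells, genistein against cells labelled as not treated, which the methods of the study describe as given the vehicle DMSO, wogonin against DMSO, each siRNA against control siRNA and each miRNA against control miRNA. Transfections used Lipofectamine RNAiMAX. An siRNA lowers the mRNA it matches, and a transfected miRNA lowers many mRNAs that pair with its seed. All groups are cells grown in culture, with no tumour or normal tissue among them.

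YAP1 and its paralog WWTR1 (TAZ) are transcriptional co-activators without a DNA-binding domain. In the nucleus they bind TEAD factors such as TEAD1 and TEAD4, which recognise the GGAATG core, and so switch on genes like CTGF and CYR61, both secreted matricellular proteins, and ANKRD1, a nuclear ankyrin repeat protein. The kinases STK3 and STK4 with SAV1 activate LATS1 and LATS2, which phosphorylate YAP1 and WWTR1 and keep them in the cytoplasm. AMOTL2, which binds YAP1, AJUBA, a LIM protein that binds LATS kinases, and LATS2 are themselves reported targets and feed back on the pathway. The activity of YAP1 and WWTR1 is set largely by phosphorylation and location, neither of which an mRNA array measures.

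The upstream sequences of CTGF and ANKRD1 are printed because they reached the highest log2 ratios of the 10 genes and held the most copies of the TEAD core. Both are the 250 bases before the annotated start on GRCh38.p14 (RefSeq), CTGF at chr6:131951373-131951622 and ANKRD1 at chr10:90921088-90921337, each on the minus strand and written 5′ to 3′ with every GGAATG in capitals.
CTGF: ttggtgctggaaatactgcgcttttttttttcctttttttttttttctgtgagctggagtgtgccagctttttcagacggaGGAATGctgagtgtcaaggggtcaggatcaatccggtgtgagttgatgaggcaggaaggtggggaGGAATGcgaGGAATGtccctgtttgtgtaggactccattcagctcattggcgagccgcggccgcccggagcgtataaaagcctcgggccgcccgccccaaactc
ANKRD1: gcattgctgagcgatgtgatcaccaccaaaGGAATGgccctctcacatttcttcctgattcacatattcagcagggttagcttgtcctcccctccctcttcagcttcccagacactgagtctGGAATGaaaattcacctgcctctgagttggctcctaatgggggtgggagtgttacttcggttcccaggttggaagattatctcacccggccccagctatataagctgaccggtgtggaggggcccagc

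The search covered GGAATG on both strands of those 250 bases, where overlapping matches would have been counted. CTGF held 3 copies, whose first bases lay 169, 104 and 95 bases before the start, and ANKRD1 held 2, at 220 and 128 bases. AJUBA and YAP1 had 1 copy each on their own strand, AMOTL2 had 1 on the opposite strand, and LATS2 and WWTR1 had 0 in this window. Of 35116 promoters searched in the same way, 4175 (11.9%) held at least 1 copy and 29 (0.083%) at least 3. The promoter table held 10 promoters of 7 of the genes. Of these 10 promoters 5 had a match, which is the count to set beside the 11.9%, and they belonged to 5 of the 7 genes. AMOTL2 and AJUBA each had a further promoter with 0 copies. A match of 6 letters is a description of the window and not a binding site.

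The mature miRNAs that were transfected are given next because each stood on the treated side of 1 or more arrays. The labels name no arm, and the arm that each name usually stands for is shown from RefSeq, 5′ to 3′, with the seed (bases 2 to 8) in capitals. The 7 miRNAs had 7 different seeds, so none of them shares a seed with another.
miR-24: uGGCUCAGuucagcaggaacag
miR-23b: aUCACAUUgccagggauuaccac
miR-27b: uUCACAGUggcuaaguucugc
miR-375: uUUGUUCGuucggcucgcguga
miR-145: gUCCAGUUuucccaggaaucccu
miR-29a: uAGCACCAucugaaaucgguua
miR-143: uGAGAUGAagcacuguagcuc

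The share of spots above background was 53.2% to 67.6% in Cy3 and 54.2% to 68.9% in Cy5, and 0 spots were saturated. The targets of the siRNAs were lower on their own arrays, CAV2 at log2 ratios of -3.80 and -3.20, GOLM1 at -3.02 and -4.15 and LAMB3 at -2.50 in FaDu and -0.89 in SAS. On the 22 arrays not aimed at it, LAMB3 ranged from -2.11 to 4.21, so the -0.89 lay inside that range. In the control channel KLK3 was highest in LNCap, KRT5 and KRT14 were well above background on all control channels of FaDu and SAS, and PAX8 was bright in both renal lines. CA9, the other renal marker, was not well above background in 786O on the larger design. There it was well above background on all 3 SAS controls, with a higher mean than in A498. KRT14 was also well above background in DU145 and LNCap, and in PC3 on the smaller design but not on the larger. The Cy3 channels of miR-23b, miR-24 and miR-27b in PC3 differed from each other by a median of at most 0.07 on the log2 scale, against 0.33 to 0.41 for every other pair of PC3 controls on that design. They were counted as 1 control, and the 3 ratios share it.

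All values below are log2 ratios of treated over control RNA unless a control level is named. A gene was measured on an array where its brightest probe was well above background in at least 1 channel, which held for 228 of 240 pairs of gene and array. Since an array has no replicate, single arrays were called by size, at a log2 ratio below -1 or above 1, with no p-value. Of the 228 pairs, 30 (13.2%) lay above 1 and 7 (3.07%) below -1. Over all genes and arrays, 5.45% of pairs lay above 1 and 4.05% below -1. With the mean of the other treatments subtracted, the counts of the 10 genes were 21 above 1 (9.21%) and 15 below -1 (6.58%), so the lead of the higher values was smaller. Over all genes that setting gave 4.79% above 1 and 4.15% below -1. The 37 pairs past the limit all came from the larger design. Fewer genes of any kind passed on the smaller design. Over all genes, 0.597% to 2.67% lay above 1 and 1.1% to 2.1% below -1 on its arrays. On the arrays of the larger design these shares were 1.49% to 14.6% and 1.41% to 12.4%. On the smaller design the ratios of the 10 genes lay between -0.53 and 0.64.

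**Figure D1:**
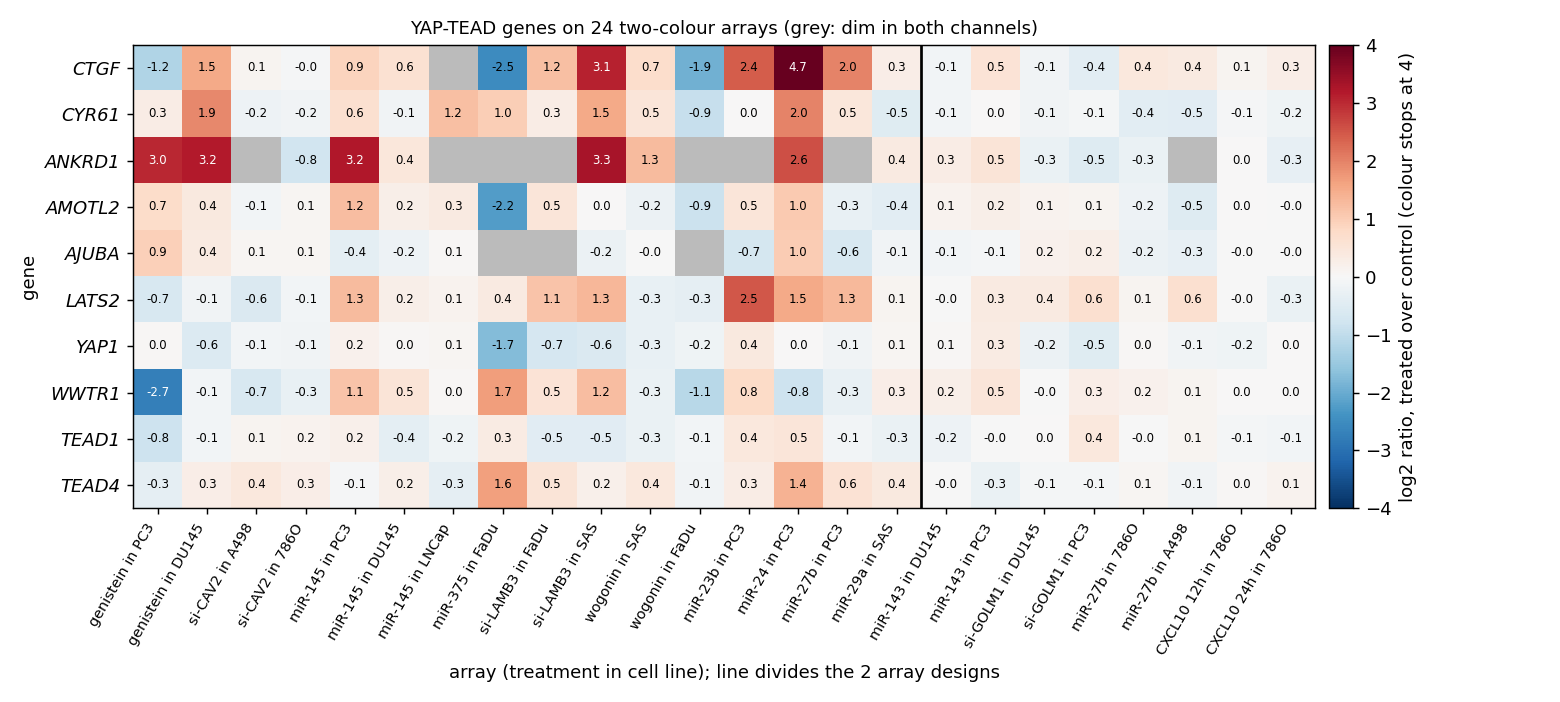
Log2 ratio of treated over control RNA for each of the 10 genes (rows) on each of the 24 arrays (columns), as colours on a scale centred on 0, with grey where both channels were dim. The strongest colours are CTGF with miR-24 in PC3 (4.75) and ANKRD1 with si-LAMB3 in SAS (3.31), miR-145 in PC3 (3.20) and genistein in DU145 (3.16), and the 8 arrays of the smaller design stay pale, between -0.53 and 0.64.

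CTGF spanned the widest range, from -2.50 with miR-375 in FaDu to 4.75 with miR-24 in PC3, with a median of 0.36 over the 23 arrays that measured it. The value of 4.75 is 26.9-fold, and the 2 spots of the probe differed with an SD of 0.05 on the log2 scale. The array software gave an error of 0.49 for it, which covers 1 array and no biological replicate. On the other arrays above 1, CTGF was 3.09 with si-LAMB3 in SAS, 2.43 with miR-23b and 2.0 with miR-27b in PC3, 1.52 with genistein in DU145 and 1.2 with si-LAMB3 in FaDu. Both further arrays below -1 were wogonin in FaDu at -1.92 and genistein in PC3 at -1.19. Thus 6 arrays lay above 1 and 3 below -1, and the lines of 1 treatment could fall on opposite sides. In bulk RNA of this kind, fewer cells that express a gene and less of its RNA per cell cannot be told apart.

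The remaining CTGF values were smaller. They were 0.90 in PC3 and 0.60 in DU145 with miR-145, 0.70 with wogonin in SAS, and 0.11 and -0.04 with si-CAV2 in A498 and 786O. With miR-29a in SAS the control was not well above background. CTGF read 0.25 there, a ratio over a dim control and not a least increase. In LNCap with miR-145 neither channel was well above background. On the smaller design CTGF was 0.55 and -0.11 with miR-143 in PC3 and DU145, -0.41 and -0.14 with si-GOLM1, 0.41 and 0.36 with miR-27b in 786O and A498, and 0.11 and 0.27 with CXCL10 at 12 and 24 h. The CTGF probe lies at chr6:132270130-132270189 of hg19 (GRCh37) on the minus strand.

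CYR61 (probe at chr1:86048953-86049012, plus strand, hg19), the closest relative of CTGF in this set, was measured on all 24 arrays and ranged from -0.92 to 1.98. It lay above 1 on 4 arrays, miR-24 in PC3 (1.98, 3.94-fold), genistein in DU145 (1.92), si-LAMB3 in SAS (1.5) and miR-145 in LNCap (1.21), and below -1 on 0. CTGF also lay above 1 on the first 3 of these, while on the LNCap array it was too dim to read. With miR-23b in PC3 CYR61 was 0.01 where CTGF was 2.43, and with miR-375 in FaDu it was 0.98 where CTGF was -2.50. With wogonin in FaDu it was -0.92, its lowest value. CTGF and CYR61 thus had ratios that were close on some arrays and far apart on others.

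ANKRD1 (chr10:92672562-92672621, minus strand, hg19) was measured on 16 arrays and was dim in both channels on the other 8. It lay above 1 on 6 arrays and below -1 on 0. With a control well above background it was 3.31 with si-LAMB3 in SAS (9.92-fold), 3.20 with miR-145 in PC3, 3.16 with genistein in DU145 and 1.27 with wogonin in SAS. In PC3 the control was not well above background on a further 2 of the arrays, and ANKRD1 was at least 4.11-fold higher with genistein and at least 4.90-fold higher with miR-24. Its 2 spots differed with an SD of 0.95 on the miR-24 array, against 0.05 with miR-145 in PC3. The lowest value was -0.75 with si-CAV2 in 786O.

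AMOTL2 (chr3:134074742-134074801, minus strand, hg19) was lowest with miR-375 in FaDu, at -2.24 or 4.73-fold lower. It lay above 1 with miR-145 (1.23) and miR-24 (1.05) in PC3, and between -0.85 (wogonin in FaDu) and 0.75 (genistein in PC3) on the other 21 arrays. AJUBA (chr14:23441247-23441306, minus strand, hg19) passed the limit on 1 array only, miR-24 in PC3 at 1.03, and came close with genistein in PC3 at 0.95. Its lowest values were -0.71 with miR-23b and -0.64 with miR-27b, both in PC3. AJUBA was dim in both channels of all 3 FaDu arrays.

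LATS2 (chr13:21547929-21547988, minus strand, hg19), the kinase that restrains YAP1, lay above 1 on 6 arrays and below -1 on 0. In PC3 these were miR-23b at 2.50 (5.65-fold), miR-24 at 1.53, miR-27b at 1.30 and miR-145 at 1.27, and in the squamous lines si-LAMB3 at 1.34 in SAS and 1.14 in FaDu. The PC3 values of miR-23b, miR-24 and miR-27b share 1 control. With miR-145 LATS2 was 0.25 in DU145 and 0.14 in LNCap, so the PC3 value was the only one of that miRNA past 1. It was lowest with genistein in PC3, at -0.65.

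Among the co-activators, YAP1 (chr11:102100584-102100643, plus strand, hg19) passed the limit once in 24 arrays, at -1.73 with miR-375 in FaDu, or 3.32-fold lower. Its other 23 ratios lay between -0.68 and 0.40. YAP1 was spotted 10 times on each array, and the SD over its 9 or 10 usable spots was 0.03 to 0.07. WWTR1 (bright probe at chr3:149238593-149238652, minus strand, hg19) ran from -2.72 with genistein in PC3 to 1.68 with miR-375 in FaDu. It also lay below -1 with wogonin in FaDu (-1.12) and above 1 with si-LAMB3 in SAS (1.24) and miR-145 in PC3 (1.13). On the miR-375 array in FaDu the paralogs thus stood on opposite sides, YAP1 below -1 and WWTR1 above 1. A dimmer WWTR1 probe (chr3:149419490-149419549, minus strand, hg19), designed to another transcript, read -0.89 on that array, where it stood clear of background in Cy3 alone, so the probes of WWTR1 disagreed in sign there.

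Of the DNA-binding partners, TEAD1 (chr11:12965225-12965284, plus strand, hg19) stayed between -0.82 with genistein in PC3 and 0.49 with miR-24 in PC3 and passed the limit on 0 of 24 arrays. TEAD4 (chr12:3149391-3149555, plus strand, hg19) lay above 1 with miR-375 in FaDu (1.63, 3.09-fold) and miR-24 in PC3 (1.39), and otherwise between -0.35 and 0.57. TEAD4, AMOTL2 and each WWTR1 probe were spotted 1 time, so their ratios have no spread over spots. On the smaller design only YAP1 had repeated spots.

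**Figure D2:**
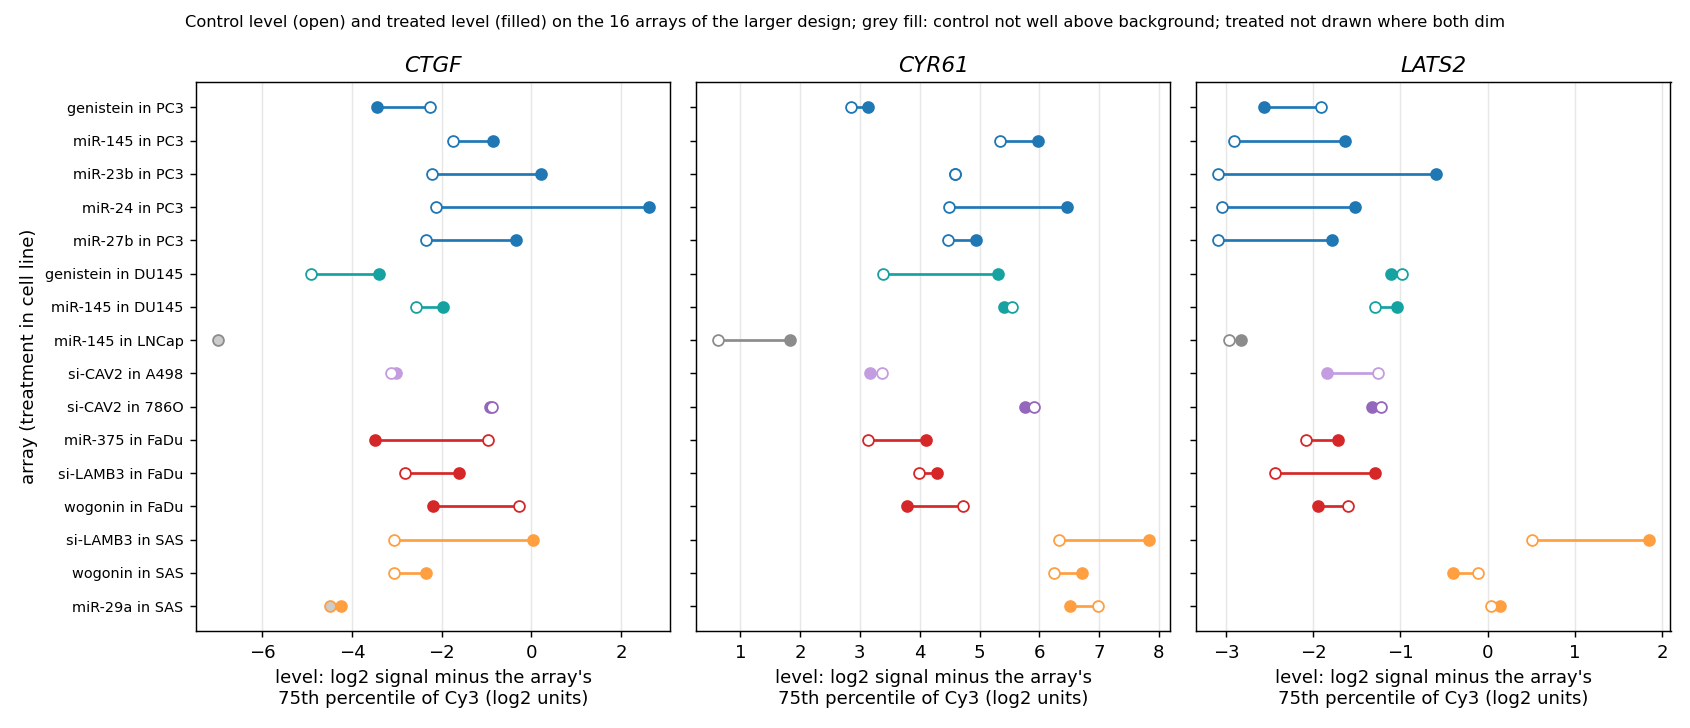
Control level (open points) and treated level (filled points) of CTGF, CYR61 and LATS2 on the 16 arrays of the larger design. The control level is log2 Cy3 signal minus the 75th percentile of the array, the treated level adds the log2 ratio to it, colours mark the lines, and a grey fill marks a dim control. For CTGF on miR-24 in PC3 the treated point (2.62) stands above all PC3 controls (-2.25 to -1.75), while for wogonin in FaDu (-2.19) it stays inside the FaDu controls (-2.82 to -0.28).

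The arrays differed in how many of the 10 genes passed the limit. With miR-24 in PC3, 7 of 10 lay above 1, against 14.6% of all measured genes on that array, and the median of the 10 was 1.22 against 0.05 over all genes. YAP1 (0.01), TEAD1 (0.49) and WWTR1 (-0.84) did not pass. With si-LAMB3 in SAS, 5 of 10 lay above 1 (background 8.11%), with a median of 0.72 against 0.04. With miR-145 in PC3 it was 4 of 10 (background 8.29%), with a median of 0.77 against -0.01. With genistein in DU145, CTGF, CYR61 and ANKRD1 were the 3 above 1 (background 5.73%), and the median was 0.32.

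Fewer genes lay below -1. With miR-375 in FaDu, CTGF, AMOTL2 and YAP1 were 3 of 8 measured (background 12.4%), and WWTR1 and TEAD4 lay above 1 on the same array. With wogonin in FaDu, CTGF and WWTR1 lay below -1 (background 2.89%) and all 8 measured genes were below 0, with a median of -0.60 against 0.08 over all genes. With genistein in PC3, WWTR1 and CTGF lay below -1 (background 7.23%), and ANKRD1, with a dim control, lay above 1 at 3.02. With si-CAV2 in either renal line 0 of the genes passed in either direction, and their ratios lay between -0.75 and 0.43. Few genes of any kind passed there. The background was 1.73% below -1 and 1.49% above 1 in A498, and 1.41% and 1.5% in 786O.

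Ratios of a line rest on the control of 1 array, so treated levels were also placed against all controls of the same line. The control level is log2 Cy3 signal minus the 75th percentile of the array, and the treated level adds the log2 ratio to it. Lines with 2 or 3 controls on the larger design were used, and the control of the array itself is among them. Of 29 pairs above 1, the treated level stood above the highest control in 23 and within the range of controls in 6. Of the 7 pairs below -1, it stood below the lowest control in 6 and within the range in 1. Of the 86 pairs between the limits, 46 were within the range, 21 above and 19 below it. A pair past the limit starts from a control inside the range, so it could leave the range on 1 side only. The counts of such pairs are thus a description and not an independent check.

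CTGF held 3 of the 7 pairs within the range. With genistein in DU145 its treated level of -3.39 lay between controls at -4.91 and -2.57. With si-LAMB3 in FaDu it was -1.62 and with wogonin in FaDu -2.19, both between controls at -2.82 and -0.28. CYR61 with genistein in DU145 was 5.31 between controls at 3.39 and 5.54, and ANKRD1 with genistein and miR-24 in PC3 and WWTR1 with miR-145 in PC3 were the other pairs of this kind. By contrast, CTGF with miR-24 in PC3 was 2.62 over controls of -2.25 to -1.75, and with si-LAMB3 in SAS 0.03 over controls of -4.49 to -3.06. LATS2 stood above the highest control on all 6 arrays where it passed 1.

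Means over cell lines were tested with limma for 8 treatments that had 2 or 3 lines on 1 design, with the lines standing in for replicates. Since no culture was repeated, the spread holds differences between lines. The SE of a mean rests on a spread pooled over the treatments of a design, and adjusted p-values run over all probes tested. Of 72 pairs of gene and treatment, 3 passed at an adjusted p of 0.05, while 19 had an unadjusted p under 0.05. The share of all probes that passed ran from 0.00385% with miR-143 to 9.41% with genistein. An unadjusted p under 0.05 was least frequent with si-CAV2 (1176 of 25166 probes) and most frequent with genistein (7014 of 25742). As shares of the 72 pairs, both counts lay inside these ranges. All 3 calls were lost when the spread came from the arrays of the treatment alone or of the same slide alone.

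Of the passing pairs, 1 was with genistein, AJUBA, which rose by 0.65 ± 0.17 (SE, n = 2 lines, 95% interval 0.26 to 1.04, limma adjusted p = 0.0495), higher in both lines at 0.95 in PC3 and 0.36 in DU145. In that fit 9.41% of all probes passed. Without the PC3 array the mean was 0.36 and the call was lost (limma adjusted p = 0.366). With si-LAMB3, LATS2 rose by 1.24 ± 0.27 (SE, n = 2 lines, 0.63 to 1.86, limma adjusted p = 0.0316) and YAP1 fell by 0.63 ± 0.15 on the log2 scale (SE, n = 2 lines, limma adjusted p = 0.0449), each in the same direction in FaDu and SAS. The share of all probes that passed with si-LAMB3 was 7.41%, and 2 of 8 of the tested genes did. Without FaDu the adjusted p in limma was 0.117 for LATS2 and 0.199 for YAP1, and without SAS 0.259 and 0.238. With the mean of the other treatments subtracted, LATS2 was 0.66 (limma adjusted p = 0.300) and YAP1 -0.42 (0.239). With the spread of the si-LAMB3 arrays alone the adjusted p in limma was 0.147 for LATS2 and 0.217 for YAP1, and for AJUBA with the genistein arrays alone it was 0.392.

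Some larger means did not pass. ANKRD1 with genistein had a mean of 3.09 ± 0.98 (SE, n = 2 lines, limma adjusted p = 0.0834), the mean of 3.16 in DU145 and 3.02 in PC3, where the control was dim. CTGF with si-LAMB3 had 2.14 ± 0.74 (limma adjusted p = 0.113) and with genistein 0.17 ± 0.74 (0.914), the mean of 1.52 and -1.19. WWTR1 with genistein had -1.42 ± 0.53 (limma adjusted p = 0.129), the mean of -2.72 and -0.12. With miR-145, 0 of 8 tested genes passed (background 6.61%), and the highest mean was AMOTL2 at 0.60 ± 0.21 (n = 3 lines, limma adjusted p = 0.133). With wogonin 0 of 8 passed (background 3.49%), and all but TEAD4 had a mean below 0.

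Few probes of any gene passed with the other 4 treatments. The shares of probes that passed were 0.123% with si-CAV2, 0.116% with si-GOLM1, 0.00754% with miR-27b in the renal lines and 0.00385% with miR-143, and 0 of the 10 genes passed with any of them. The lowest adjusted p there was 0.131, for CYR61 with miR-27b at -0.43 ± 0.07 (SE, n = 2 lines, limma), lower in both renal lines at -0.41 and -0.46. For si-CAV2 the means lay between -0.48 (WWTR1) and 0.35 (TEAD4).

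**Figure D3:**
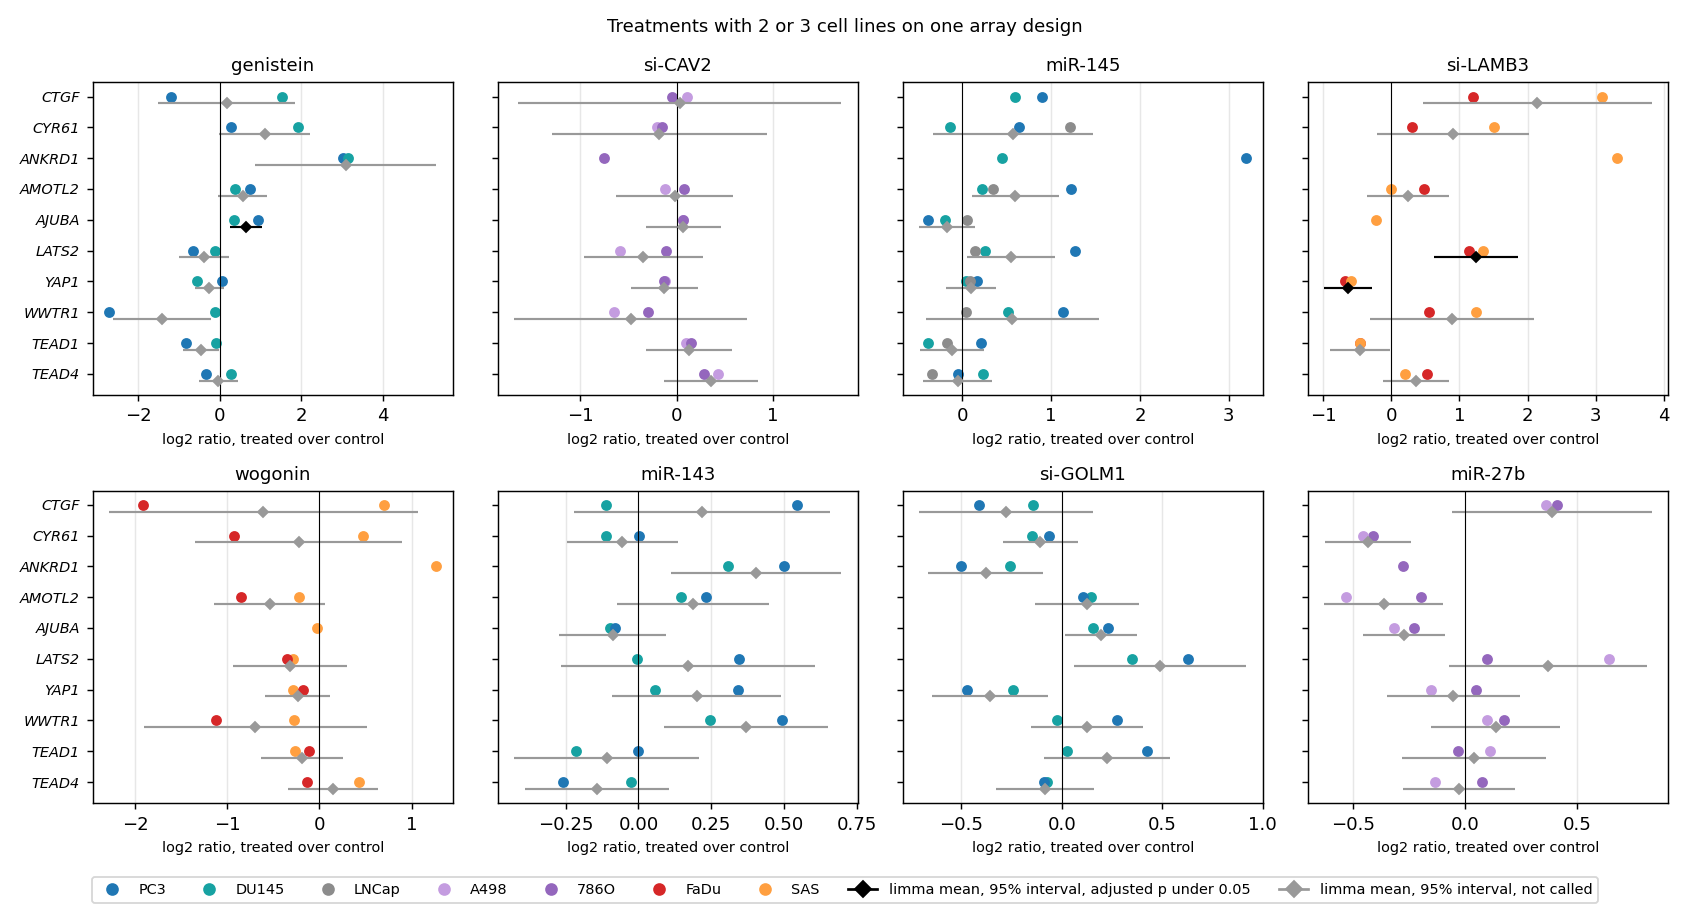
Mean log2 ratio of each gene by treatment over the cell lines of 1 array design, with 95% intervals from limma and the single arrays as points. The intervals of AJUBA with genistein (0.26 to 1.04) and LATS2 with si-LAMB3 (0.63 to 1.86) lie above 0, and that of YAP1 with si-LAMB3 (-0.98 to -0.28) lies below it.

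The other genes of the pathway were read from a list of 25 Hippo components and a list of 17 further reported YAP and TAZ targets. Over the 8 treatments, 1 Hippo gene passed limma's test, SAV1, the scaffold of the upstream kinases, which rose with miR-145 by 0.70 ± 0.17 (n = 3 lines, adjusted p = 0.0418). Its values were 1.07 in PC3, 0.21 in DU145 and 0.83 in LNCap, and 20 other Hippo genes tested with miR-145 did not pass. Of the further targets, NUAK2, a kinase, rose with miR-145 by 1.31 ± 0.30 (n = 3 lines, limma adjusted p = 0.0375), at 1.90, 0.35 and 1.68. ASAP1, an Arf GTPase activator, fell with si-LAMB3 by 1.37 ± 0.26 on the log2 scale (n = 2 lines, limma adjusted p = 0.0231), at -1.80 in FaDu and -0.95 in SAS. The remaining 10 and 14 tested targets did not pass with these treatments. Of all probes, 6.61% passed with miR-145 and 7.41% with si-LAMB3. The calls were 1 of 21 Hippo genes and 1 of 11 targets with miR-145 and 1 of 15 targets with si-LAMB3, near those shares.

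On the single arrays that stood out for the 10 genes, the lists were mixed. With miR-24 in PC3, 7 of 15 measured further targets lay above 1 (background 14.6%) and 0 below -1, with a median of 0.98, GADD45B (2.02), TGFB2 (1.85) and CCDC80 (1.5) being highest. Of 24 Hippo genes on that array, NF2 (-2.41), which encodes the upstream regulator merlin, and the kinase MAP4K4 (-1.16) lay below -1. FRMD6 (1.06) and STK3 (1.03) lay above 1. Of all 21875 genes measured on that array, 2401 lay below -1 and 3204 above 1. In both directions the Hippo genes thus passed less often than genes of any kind. With miR-375 in FaDu 7 of 15 further targets lay below -1 (background 12.4%), CCDC80 (-3.51), IGFBP3 (-3.46) and F3 (-2.33) being lowest, while NT5E (3.81), NUAK2 (1.66) and FJX1 (1.16) lay above 1. With miR-145 in PC3, 6 of 16 lay above 1 (background 8.29%) and 2 below -1, led by the receptor kinase AXL (2.21). AXL was also 3.60 with miR-23b and 4.03 with miR-27b in PC3, and 2.30 and 1.32 with si-LAMB3 in FaDu and SAS. With si-LAMB3 in SAS, where 5 of the 10 genes passed, only 1 of 17 further targets lay above 1 (background 8.11%) and their median was -0.27.

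Control levels show where the lines started. They are log2 Cy3 signals minus the 75th percentile of the array, they compare 1 probe across lines and not probes with each other, and their spread holds the kind of control (vehicle or none, control siRNA or control miRNA). On the larger design CYR61 was highest in SAS (6.52 ± 0.40, SD, n = 3) and 786O (5.91, 1 control), then DU145 (4.47, 2 controls at 3.39 and 5.54), PC3 (4.24 ± 1.27, n = 3), FaDu (3.94 ± 0.80, n = 3) and A498 (3.37), with LNCap lowest at 0.62. The ranges of DU145, PC3 and FaDu overlapped. CTGF was highest in 786O (-0.88) and FaDu (-1.35 ± 1.31, n = 3), then PC3 (-2.08 ± 0.29, n = 3), A498 (-3.14), SAS (-3.54 ± 0.83, n = 3) and DU145 (-3.74, 2 controls), and it was not well above background in LNCap or on 1 of the 3 SAS controls. The FaDu range of CTGF, -2.82 to -0.28, took in that of PC3. ANKRD1 was well above background on all controls in DU145, SAS and 786O, on 1 of 5 channels in PC3 and on none in A498, LNCap and FaDu.

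YAP1 was 3.13 ± 0.32 (SD, n = 3) in FaDu, and its means in the other 6 lines lay between 0.59 and 1.63, with no overlap with FaDu. WWTR1 was highest in the renal lines, at 1.84 in A498 and 1.83 in 786O, lay between -1.21 and -0.03 in SAS, FaDu, DU145 and PC3, and was not well above background in LNCap. TEAD1 was 3.04 in DU145 (2 controls), 2.52 in A498, 2.38 ± 0.10 in PC3, 2.37 in 786O, 1.59 ± 0.19 in SAS, 1.58 ± 0.27 in FaDu and 0.82 in LNCap. TEAD4 differed less, with means from -0.86 in LNCap to 0.85 in SAS, and its ranges in PC3, DU145 and FaDu overlapped.

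Among the feedback genes, AMOTL2 was highest in SAS (5.38 ± 0.38, SD, n = 3), lay between 3.44 and 3.82 in A498, FaDu, DU145 and 786O, and was 2.08 ± 0.80 (n = 3) in PC3 and -0.26 in LNCap. LATS2 was highest in SAS (0.14 ± 0.32, n = 3), lay between -1.26 and -1.14 in DU145, 786O and A498, and was -2.04 ± 0.42 (n = 3) in FaDu, -2.63 ± 0.63 (n = 3) in PC3 and -2.96 in LNCap. The ranges of LATS2 in FaDu and PC3 overlapped. AJUBA was 3.71 ± 0.71 (n = 3) in SAS, 2.25 in 786O, 2.05 ± 1.08 (n = 3) in PC3, 1.63 in DU145, 0.80 in A498 and -0.13 in LNCap, and it was dim on every FaDu control. On the smaller design, read apart, ANKRD1 was 2.24 and 2.36 in the PC3 controls and -1.53 and -0.94 in the DU145 controls, a difference not tested there. On the larger design 2 of the 3 PC3 controls of ANKRD1 were dim.

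**Figure D4:**
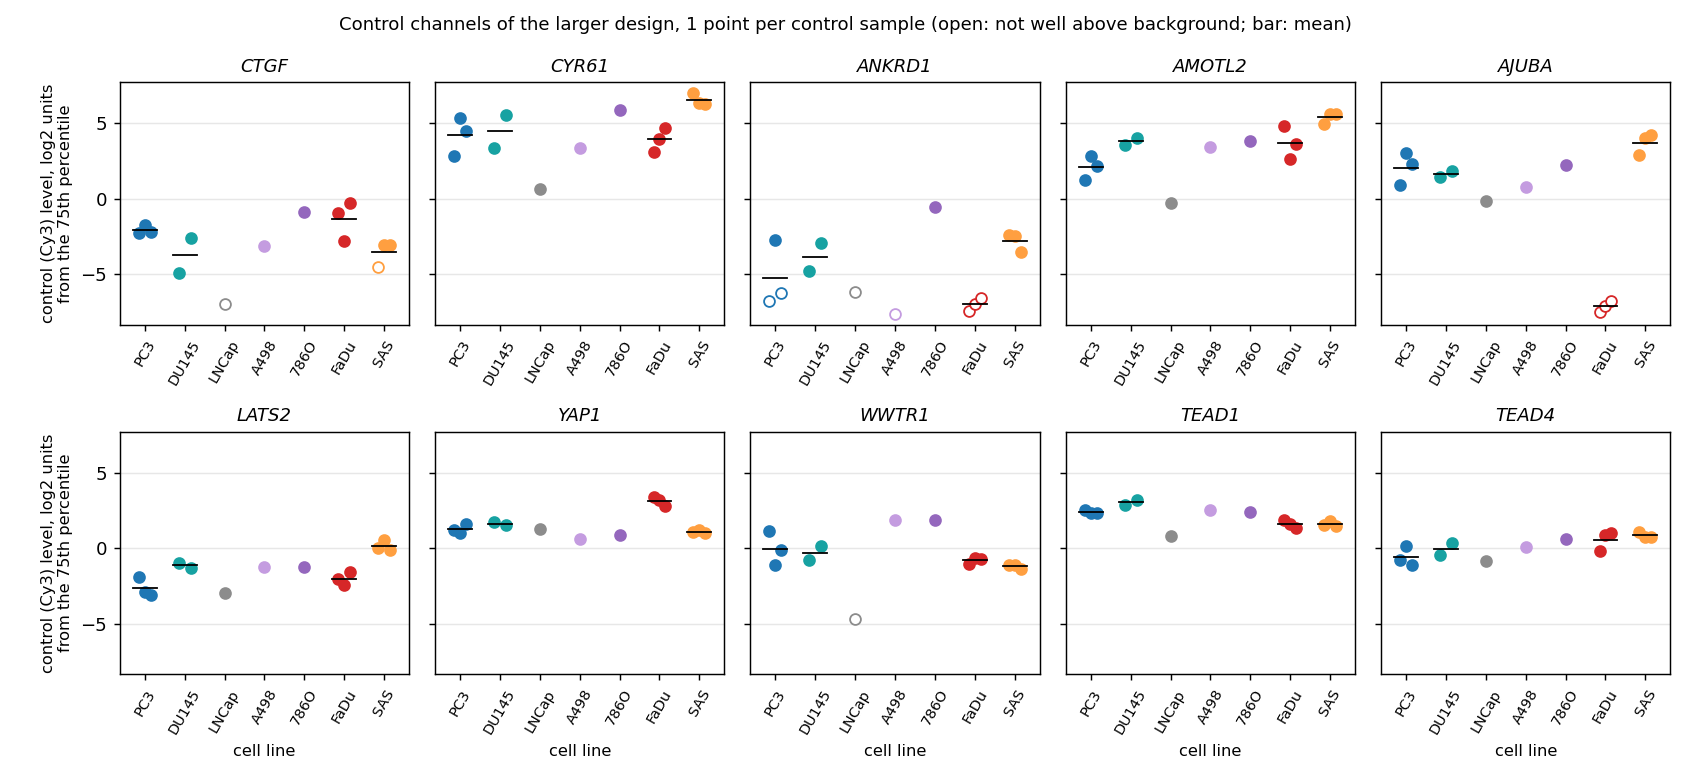
Control-channel level of each of the 10 genes by cell line on the larger design, as log2 Cy3 signal minus the 75th percentile of the array, with 1 point per control. The 3 FaDu controls of YAP1 (mean 3.13) stand above all other lines, and LNCap is lowest for CYR61 (0.62) and TEAD1 (0.82).

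In the squamous lines against PC3 and DU145 (11 controls, limma), 6 of 10 genes passed, against 39.2% of all probes. AMOTL2 was higher by 1.59 ± 0.41 (SE, adjusted p = 0.0110), TEAD4 by 1.02 ± 0.31 (0.0242), LATS2 by 0.94 ± 0.26 (0.0159) and YAP1 by 0.66 ± 0.17 (0.0128). TEAD1 was lower by a log2 difference of -1.12 ± 0.16 (adjusted p = 0.000405), and AJUBA, dim in FaDu, was at least 7.46-fold lower (limma adjusted p = 6.88e-05). CTGF (0.46), CYR61 (0.88), ANKRD1 and WWTR1 (-0.83, limma adjusted p = 0.0910) did not pass, though without the PC3 control of miR-145 WWTR1 did (-1.11, 0.0131). With slide as a block YAP1 (limma adjusted p = 0.0919) and TEAD4 (0.171) did not pass. TEAD4 was also lost without the control of genistein in PC3 (limma adjusted p = 0.0516) or DU145 (0.105), of si-LAMB3 (0.0518) or wogonin (0.0567) in FaDu or the shared PC3 control (0.0512), and LATS2 without that of miR-145 in DU145 (0.0563). The lead of YAP1 rests on FaDu, since SAS at 1.09 ± 0.08 (n = 3) lay below DU145 and close to PC3 at 1.27 ± 0.30 (n = 3). The lower AJUBA also rests on FaDu, since SAS at 3.71 lay above PC3 (2.05) and DU145 (1.63). LATS2 and AMOTL2 were high in SAS, while FaDu lay below DU145 in both, at -2.04 against -1.14 and 3.67 against 3.80, the ranges of AMOTL2 overlapping.

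FaDu and SAS, both squamous, differed in 7 of 10 genes (6 controls, limma, background 28.2%). YAP1 was higher in FaDu by 2.04 ± 0.23 (SE, adjusted p = 0.000105) and CTGF, dim on the SAS control of miR-29a, by 2.18 ± 0.72 (0.0442). CYR61 was lower in FaDu, at -2.58 ± 0.69 (limma adjusted p = 0.0188), as were LATS2 at -2.18 ± 0.34 (0.000939) and AMOTL2 at -1.71 ± 0.53 (0.0358). ANKRD1 was at least 8.18-fold lower (limma adjusted p = 0.00647) and AJUBA at least 745-fold lower (2.75e-07) in FaDu. CTGF and CYR61 thus differed in opposite directions between these lines. The call for CTGF was lost with slide as a block (limma adjusted p = 0.0927), with no filter on dim probes (0.0790) and without the control of miR-375 (0.120) or wogonin (0.152) in FaDu or of si-LAMB3 (0.0697), wogonin (0.0652) or miR-29a (0.144) in SAS. That for AMOTL2 was lost with quantile normalization (limma adjusted p = 0.0517), with no filter (0.0669) and without the control of si-LAMB3 in FaDu (0.118) or SAS (0.105) or of wogonin in SAS (0.0998) or FaDu (0.0899). That for CYR61 was lost without the control of miR-375 in FaDu (limma adjusted p = 0.0684) or of miR-29a in SAS (0.0606).

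PC3 and DU145 differed in 1 of 10 genes (5 controls, limma, background 25.3%). LATS2 was lower in PC3 by a log2 difference of -1.5 ± 0.38 (SE, adjusted p = 0.0165). Without the control of genistein in DU145, of miR-145 in DU145 or the shared PC3 control, its limma adjusted p was 0.0975, 0.0506 and 0.0541. AMOTL2 (-1.72, limma adjusted p = 0.0607), TEAD1 (-0.66, 0.0667) and CTGF (1.66, 0.166) did not pass, and the 95% interval of CTGF ran from -0.13 to 3.46. Without the PC3 control of miR-145, AMOTL2 (-2.09, limma adjusted p = 0.0404) passed, as did ANKRD1, at least 3.37-fold lower in PC3 (0.0127), whose remaining PC3 controls were all dim. With normexp AMOTL2 (0.0497) and TEAD1 (0.0221) did.

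In the control channel, 17 of 25 Hippo genes passed between the squamous and the prostate lines (background 39.2%), 12 higher and 5 lower in the squamous lines. STK3 was higher by 2.42 ± 0.26 (limma adjusted p = 6.2e-05), WWC1 by 1.82 ± 0.41 (0.00580) and VGLL1, dim in both prostate lines, at least 5.77-fold (limma adjusted p = 0.00276). MAP4K4 (-1.60), TEAD2 (-1.0) and RASSF1 (-0.93) were lowest. Of the further targets 5 of 15 passed, a share below that background, with F3, the tissue factor gene, higher by 7.08 ± 0.37 (limma adjusted p = 4.12e-07) and FOXF2, dim in the prostate lines, at least 16-fold. Between FaDu and SAS, 8 of 15 further targets passed (background 28.2%) and all 8 were lower in FaDu, led by TGFB2 (-5.10), NT5E (-3.68) and CCDC80 (-3.43).

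The genes whose ratios ran most like the mean of CTGF and CYR61 were named from 16571 genes measured on all 16 arrays of the larger design. They were SIKE1 (Pearson r = 0.87), KIAA1919 (0.85), ACOT9 (0.84), THOC5 (0.83) and PISD (0.83), a description over arrays that share lines, slides and in 3 cases a control. Their ratios were smaller than those of CTGF, with highest values of 0.99 to 1.28. Of the other 8 genes, LATS2 ranked 276th (0.62) and AMOTL2 604th (0.55), while YAP1 ranked 4835th (0.16). ANKRD1 and AJUBA were not measured on all 16 arrays and have no rank. CTGF itself was dim in both channels with miR-145 in LNCap, and over the other 15 arrays, an alternative chosen after seeing the data, 4 of these 5 genes stayed among the first 5, with LGR6 (0.84) in the place of PISD, then 9th.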

How the data were processed

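Total RNA was labeled with Cy3 (control) and Cy5 (treated) without dye swap. The authors deposited Agilent Feature Extraction 10.7.3.1 output per array, holding background- and dye-corrected intensity and a log10 ratio of Cy5 over Cy3. Their series matrix differed from the latter by at most 0 over 62976 features. The deposited log10 ratio was multiplied to log2. Control and outlier spots (419 to 614 per array) were left out, spots of a probe averaged, and a gene read by its brightest probe. A probe passed the software's background flag when a share of 0.5 or more of its spots did. A bound ("at least") replaces a dim channel by the lowest signal well above background on the array. On single arrays, a dim channel with a higher signal than that kept its own.

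Treatment means (against 0) and control levels were tested with limma 3.58.1 in R 4.3.3, and the fit was tried on simulated data. Benjamini-Hochberg adjustment ran over all probes tested in a comparison, those that passed its background filter. The study states no test for these arrays. In a ratio against 0 the spread of the control is left out. Whether arrays of a line share a culture is not given, so p-values measure only the spread between these samples, and the number of arrays limits the precision. The rest used Python 3.11.15. Coordinates of probes are those of the array annotation. The 10 genes, all reported, and the 2 lists were chosen with earlier results of these data known. From the lists, the text names genes past the test or the largest 3 in each direction, and AXL, chosen after its values were seen. The 5 genes most like CTGF and CYR61 were named by correlation. Alternatives changed background correction, centring, probe rule, filter, dye-bias correction, limits, samples and blocks. The deposited error of the log ratio is given once and the deposited p-value was not used. Some markers of the cell lines are not reported here.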

Additional observations from a re-analysis of the deposited data

Results flagged for a closer look

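CTGF lay on opposite sides of 0 in the cell lines of 2 treatments. With genistein its log2 ratio was 1.52 in DU145 and -1.19 in PC3, a difference of 2.71, and with wogonin it was 0.70 in SAS and -1.92 in FaDu, a difference of 2.62. Each line had 1 array per treatment, so neither difference was tested. In DU145 with genistein and FaDu with wogonin the treated level of CTGF lay within the range of the controls of that line. In PC3 with genistein it lay below (-3.44) and in SAS with wogonin above (-2.36) that range. The array's own control was the lowest in PC3 (-2.25) and the highest in SAS (-3.06), so any change in that direction left the range. In DU145 (-4.91) and FaDu (-0.28) it stood at the end away from the change. The places in the range thus do not rank these changes.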

How the results depend on the processing

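The count of 3 passing treatment means became 6 with normexp and loess, where all 3 stayed and LATS2 with si-GOLM1 and AMOTL2 and CYR61 with miR-27b were added. That setting raised the calls over all probes as well. They went from 29 to 1325 of 25001 with si-GOLM1 and from 2 to 747 of 26528 with miR-27b. The added calls are thus not particular to these genes. The count of passing means was 0 when only the arrays of a treatment entered the fit (limma, 15 pairs at an unadjusted p under 0.05). It was also 0 when only arrays of the same slide shared the spread, an alternative chosen after seeing the data (19 pairs). Leaving out each line gave 1 to 4. The call of AJUBA was also lost with no filter on dim probes (limma adjusted p = 0.0648). The 30 values above 1 became 18 (7.89%) with normexp and loess. They became 46 at a limit of 0.5 (20.2%, against 14.2% over all genes) and 17 at a limit of 1.5 (7.46% against 2.53%). The 7 values below -1 became 22 at a limit of 0.5, at 9.65% a smaller share than the 11.4% over all genes. With the mean of the other treatments subtracted they became 15 (6.58% against 4.15%), where those above 1 were 21 (9.21% against 4.79%). Over all genes, normexp and loess left 1.13% of pairs above 1 and 1.37% below -1. Between PC3 and DU145 the count of 1 became 2 with quantile normalization, 3 with normexp, 3 with the near-identical PC3 controls counted apart (chosen after seeing the data) and 0 to 3 without each control in turn. Leaving out each control gave 5 to 7 for the squamous against prostate lines and 5 to 6 for FaDu against SAS. No passing treatment mean and no passing control-channel difference reversed direction under the alternatives run. Means that did not pass could change sign when 1 line was left out. CTGF with genistein had a mean of 0.17 but was -1.19 without DU145, and with wogonin -0.61 but 0.70 without FaDu. Slide could not be used as a block for the treatment means, since each treatment lay on 1 slide. No paired analysis was possible because each cell line and treatment had 1 array and the labels carry no replicate numbers. A probe not well above background has at most a bound, which limits ANKRD1, AJUBA in FaDu and CTGF and WWTR1 in LNCap and CTGF on 1 SAS control.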
